A study of Homo sapiens with 18 samples.

Results

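The 68 microRNA precursors described here are those whose array row gave a clear signal. They were chosen by their level: a row with exactly 1 gene symbol, of a microRNA gene and not of a microRNA host gene, had to have a mean log2 value of at least 4 over all 18 arrays, and the row with the highest mean stood for a gene with several rows. Of 1018 microRNA genes with such a row, 68 (6.68%) met this rule, while the median of all 1018 means was 1.56. The level itself is therefore a description and not a finding. A mean over all arrays can also depend on 1 group: over the 12 flagellin arrays alone 2 of the 68, MIR3132 and MIR185, lay below 4, and over the 6 mock arrays alone 4 did.

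The cells were HEK293, an established human embryonic kidney line, overexpressing murine TLR5, the receptor that binds bacterial flagellin and signals to NF-kB. All 6 groups shared this line, growth to passage 7 in media with labelled or unlabelled lysine and arginine, and 3 Affymetrix Human Gene 2.1 ST arrays a group, lettered A, B and C. They were mock at 60 min, mock at 120 min, flagellin isolated from E. coli Nissle (EcN) for 60 or 120 min, and flagellin isolated from Salmonella Typhimurium SL1344 (ST) for 60 or 120 min, each flagellin dosed to match a multiplicity of infection of 10. The sources used here do not give the amino acid label of each array, whether the line was 1 clone, or the day of each culture or hybridisation. Flagellin and amino acid label therefore cannot be told apart. The description fields of the 6 ST arrays name mock while every other field, the title included, names ST, and the titles were followed. The labels call the replicates biological without saying whether a letter is a separate culture, so p-values measure the spread between these arrays, which may be partly technical.

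A microRNA is cut from a longer transcript. Drosha with DGCR8 releases a hairpin from the primary transcript in the nucleus, exportin-5 carries it out, Dicer trims it to a duplex, and an Argonaute protein keeps 1 strand, which pairs with messenger RNAs mainly through its seed, bases 2 to 8. Many microRNAs lie inside another gene and are made from its transcript, and some, called mirtrons, are whole short introns released by splicing. An expression array of this kind carries probes to the hairpin stretch, so a row can pick up the primary transcript, the hairpin, the mature strand or unspliced RNA of a gene that holds it, and which of these hybridised cannot be told apart here. The total RNA was made on silica columns, which as a rule keep long RNA better than the shortest RNA.

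The sequences of the precursors that passed the test are given first, because they are the molecules the comparisons turn on. They come from RefSeq (GRCh38.p14), in 5′ to 3′ direction, with the seed in capitals.
miR-3132: uGGGUAGAgaaggagcucagagga
miR-4653-5p: uCUCUGAGcaaggcuuaacacc
miR-4653-3p: uGGAGUUAaggguugcuuggaga
miR-4677-5p: uUGUUCUUuggucuuucagcca
miR-4677-3p: uCUGUGAGaccaaagaacuacu
miR-378i: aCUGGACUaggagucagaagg
miR-647: gUGGCUGCacucacuuccuuc
miR-593-5p: aGGCACCAgccaggcauugcucagc
miR-593-3p: uGUCUCUGcugggguuucu
miR-4442: gCCGGACAagagggagg
miR-4732-5p: uGUAGAGCagggagcaggaagcu
miR-4732-3p: gCCCUGACcuguccuguucug
miR-760: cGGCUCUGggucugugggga
miR-3939: uACGCGCAgaccacaggauguc
No seed of these was shared by another precursor among the 68. Over all 68, RefSeq gave 87 mature sequences for 61 precursors, with 85 different seeds, and 2 seeds were shared by precursors of different genes.

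The shared seeds are shown next, with those of MIR221, the precursor that varied most between arrays, and its neighbour. MIR25 and MIR92B belong to the miR-25/92 family, MIR181B1 and MIR181D to the miR-181 family. MIR221 shares its seed with MIR222, its neighbour on the X chromosome, which fell short of the level rule.
miR-25-3p: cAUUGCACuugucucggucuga
miR-92b-3p: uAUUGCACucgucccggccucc
miR-181b-5p: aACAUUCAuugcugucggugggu
miR-181d-5p: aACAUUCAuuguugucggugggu
miR-221-3p: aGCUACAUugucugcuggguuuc
miR-222-3p: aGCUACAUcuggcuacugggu
miR-4635: uCUUGAAGucagaacccgcaa
miR-4635 is given because its row followed the same arrays as MIR221, as described further on.

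The array probes lie along the hairpin, so the hairpins of 3 precursors that the results turn on are given whole, with the mature strands in capitals. MIR3132 lies at chr2:219549073-219549147 on the minus strand, inside OBSL1. MIR4653 lies at chr7:101159473-101159555 on the plus strand, inside AP1S1. MIR221 lies at chrX:45746157-45746266 on the minus strand, inside the long noncoding host gene MIR222HG. All 3 positions are those of GRCh38.p14, and the sources used here do not name the array's own build.
MIR3132: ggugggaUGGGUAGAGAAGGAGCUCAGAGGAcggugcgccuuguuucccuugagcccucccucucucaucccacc
MIR4653: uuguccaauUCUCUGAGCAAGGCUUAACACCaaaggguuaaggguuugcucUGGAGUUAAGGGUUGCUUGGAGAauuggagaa
MIR221: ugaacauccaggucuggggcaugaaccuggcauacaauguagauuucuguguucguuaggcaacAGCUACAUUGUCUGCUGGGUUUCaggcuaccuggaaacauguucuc
MIR3132 is a hairpin of 75 bases with a GC content of 61.3%, MIR4653 one of 83 bases with 44.6%, and MIR221 one of 110 bases with 47.3%.

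The arrays were alike in their medians, which lay between 2.27 and 2.32 over 53617 rows, and 16111 genes were tested. The level of an NF-kB target did not follow the labelled groups. NFKBIA encodes an inhibitor that NF-kB induces as feedback, and its log2 level lay between 10.15 and 10.85 on array C of every flagellin group and on mock 120 min A, and between 8.09 and 8.82 on the other 13 arrays. These 5 arrays stood apart from others of their own groups. Whether some arrays carry another treatment than their label says, or follow the amino acid label, was not tested, and this bears on every comparison between groups given here. Of 7 genes known from the HEK293 line, 6 had means above the array medians, with NEFL at 10.38, CDH2 at 8.63, LIN28B at 8.11, VIM at 7.91, KRT18 at 5.54 and KRT8 at 4.35, and NEFM at 2.04 lay below them. Of 6 leukocyte markers, CD68 at 9.29 and CD14 at 2.60 lay above the medians, and LYZ at 1.79, ITGAM at 1.73, CD3E at 1.69 and PTPRC at 1.29 below them. Of 5 fibroblast markers with a row, LUM at 5.53, COL1A1 at 4.68 and THY1 at 2.53 lay above, COL1A2 at 1.80 and DCN at 1.40 below. Of 6 markers of intestinal epithelium, LGR5 at 8.71, CDX2 at 5.92, CDH17 at 4.20, MUC2 at 2.45 and VIL1 at 2.38 lay above. FABP1 at 1.51 lay below. Among the marker genes tested, KRT18 rose at 60 min with either flagellin, CD68 rose and LGR5 fell with EcN at 60 min, and LUM fell with ST at 120 min; their part in the results below was not tested. In these bulk samples, fewer cells of a kind and less RNA per cell cannot be told apart.

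The rows that met the level rule ranged from a mean log2 of 11.77 for MIR4737 to 4.08 for MIR185. Next below MIR4737 were MIR3143 at 8.34, MIR3661 at 7.50, MIR4732 at 6.87, MIR4442 at 6.39, MIR2909 at 6.32, MIR25 at 6.25, MIR3939 at 6.24, MIR1282 at 6.13 and MIR3916 at 6.11. Probes differ in how strongly they bind, so these levels are not an order of abundance. Just inside the threshold lay MIR3665 at 4.09, MIR3137 at 4.09 and MIR185 at 4.08, and just outside it MIR933 at 3.999, MIR4786 at 3.98 and MIR324 at 3.95. On all 18 arrays, 67 of the 68 lay above their own array's median, and the exception, MIR378I, fell to 2.19 on ST 60 min A. MIR877, a mirtron of ABCF1, had 7 rows, of which 6 held identical values, and the means of the 7 lay between 4.36 and 4.38.

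The median spread between arrays was wider among the precursors than over all genes tested. The SD of a precursor over the 18 arrays had a median of 0.38 on the log2 scale, against 0.21 over all genes tested, and the median SD left within groups was 0.36 against 0.18. MIR4737 was the steadiest, with an SD of 0.15, followed by MIR3935 at 0.16, MIR339 at 0.20, MIR449B at 0.23 and MIR3939 at 0.23. MIR221 varied most, with an SD of 0.997, followed by MIR378I at 0.93, MIR4653 at 0.78, MIR4635 at 0.74 and MIR647 at 0.66. Between the highest and lowest array this was a span from 11.51 to 12.06 for MIR4737 and from 3.91 to 7.35 for MIR221. The same medians were not taken over the microRNA genes tested with a mean below 4. Among those in the lists given further on, the SD ran from 0.21 for MIRLET7I to 0.53 for MIRLET7D. The wider median spread is therefore not read as particular to these precursors.

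Most but not all of the precursors had a GC-rich hairpin. RefSeq gave a hairpin for 61 of them and for 778 of the other microRNA genes on the array. The median GC content was 63.0% among the 61, with quartiles of 54.7% and 68.1%, and 47.2% among the 778, with quartiles of 41.1% and 54.7%. Over 60% GC were 37 of 61 (60.7%) against 92 of 778 (11.8%). The other 24 lay at or below 60%. Rows close below the threshold were in between: of 62 with a mean of 3 to 4, the median was 58.1% and 24 (38.7%) were over 60%, and of the 216 tested with a mean below 4 the median was 55.6%. The median length was 83 bases among the 61 and among the 778. Across all 839 hairpins, Spearman's correlation of the mean level was 0.633 with GC content and 0.0698 with length; the level is what chose the precursors, so these values describe that choice. Duplexes rich in G and C bind more strongly as a rule, the points share the same arrays and probe design, and the part of base composition in these levels was not tested. The range was wide all the same: MIR3665 had 77.1% GC, MIR579 had 32.7%, and MIR3143, with the second highest level, had 41.3%.

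**Figure D1:**
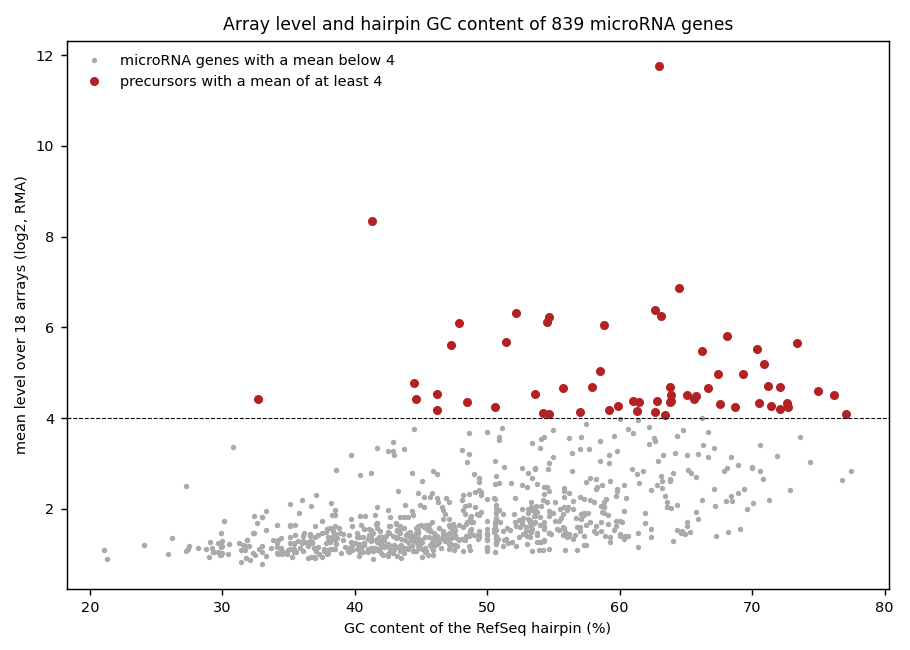
Mean log2 level over 18 arrays (vertical axis) against the GC content of the RefSeq hairpin in percent (horizontal axis) for 839 microRNA genes; red points are the 61 precursors with a mean of at least 4, grey points the other 778, and the dashed line is the threshold. The red points lie mostly to the right, with a median of 63.0% GC against 47.2% for the grey ones.

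Changes at 60 min were set beside GC content as a description. Over the 277 tested microRNA genes with a hairpin, Spearman's correlation of GC content with the log2 fold change was 0.0215 for EcN and 0.0381 for ST. Among the 61 precursors the same correlations were 0.273 and 0.196.

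The first comparison asked what EcN flagellin changed after 60 min. A log2 fold change is given with its SE from a linear model over all 18 arrays (limma), and rose or fell is written where the p adjusted by Benjamini-Hochberg over all 16111 genes was under 0.05. Of the 68 precursors, 7 (10.3%) passed and all 7 fell. Of all genes tested, 6.45% passed and 3.37% fell. Those genes met a lower level cut than the 68, so the shares are set side by side only, here and below. With a mean of at least 4 required of every gene, 10 precursors and 1560 genes passed, against 7 and 1039 in the main fit. No share of all genes was taken in that fit, so shares at a like level cannot be compared here. The 7 of the main fit were MIR4653, MIR647, MIR4677, MIR3132, MIR4732, MIR4442 and MIR593. MIR3132 met the level rule through mock, so its falls, in this count and those below, are not independent of the rule. The median change over the 68 was -0.17, against 0.01 over all genes, and 44 of 68 (64.7%) were below 0, against 48.3% of all genes. Among the 258 microRNA genes tested with a mean below 4, 4 passed (1.55%), 1 upward and 3 downward.

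ST flagellin after 60 min gave counts of the same order. Of the 68, 6 (8.82%) passed, against 5.26% of all genes; 5 fell, against 3.03% of all genes, and 1 rose, against 2.23%. MIR378I, MIR4653, MIR4677, MIR3132 and MIR760 fell, and MIR3939 rose. The median change was -0.16 against 0.00 over all genes, with 41 of 68 (60.3%) below 0 against 49.9%. Among the microRNA genes with a mean below 4, 5 of 258 passed (1.94%), 2 upward and 3 downward. Both flagellin groups were compared with the same 3 mock arrays, so the results at 60 min share their controls and are set side by side only.

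At 120 min few genes passed at all. With EcN, 0 of the 68 passed in limma, against 0.0621% of all genes, and at an unadjusted p under 0.05 4 precursors lay above mock and 6 below. With ST, 1 of the 68 (1.47%) passed, against 0.559% of all genes. It was MIR3132, which met the level rule through mock and which fell, as did 0.248% of all genes. The median changes were -0.07 and 0.01, against 0.00 over all genes in both. The highest and lowest estimates with EcN were 0.71 ± 0.22 for MIR663B (adjusted p = 0.125) and -1.40 ± 0.68 for MIR221 (adjusted p = 0.317). MIR545, which overlaps the noncoding gene FTX, stood at -1.12 ± 0.34 (adjusted p = 0.125) and MIR3939 at 0.38 ± 0.13 (adjusted p = 0.148).

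**Figure D2:**
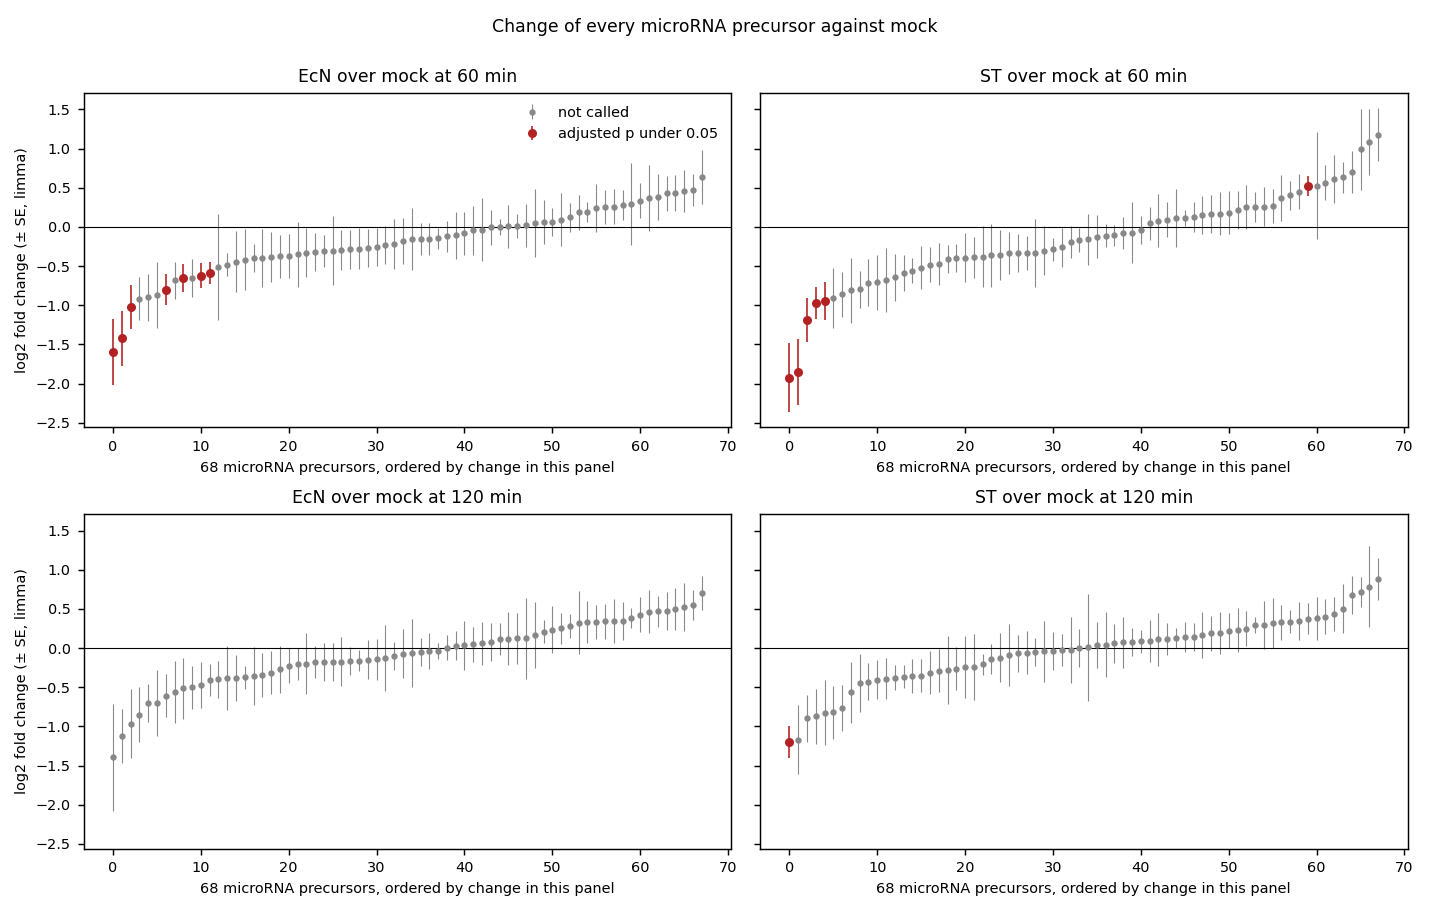
Log2 fold change with its SE (limma, vertical axis) of all 68 microRNA precursors against mock, ordered by size within each panel (horizontal axis), for EcN and ST at 60 and 120 min; red points passed an adjusted p under 0.05. Red points number 7, 6, 0 and 1 in the order EcN 60 min, ST 60 min, EcN 120 min and ST 120 min, and all but 1 lie below 0.

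MIR3132 was called in 3 of the 4 comparisons with mock, more than any other precursor. It met the level rule through mock, with a mean of 4.71 over the 6 mock arrays and 3.87 over the 12 flagellin arrays, so its falls are not independent of the rule. Its log2 level was 4.89, 4.82 and 4.65 on the mock 60 min arrays A, B and C, then 4.12, 3.57 and 4.26 with EcN and 3.60, 3.86 and 3.99 with ST. Every flagellin array at 60 min lay below every mock array. The change was -0.80 ± 0.20 with EcN (adjusted p = 0.0319, limma) and -0.97 ± 0.20 with ST (adjusted p = 0.0173). At 120 min the mock arrays stood at 4.51, 5.13 and 4.27, the ST arrays at 3.24, 3.66 and 3.41, and the EcN arrays at 4.18, 4.33 and 4.18. The ST arrays lay below all mock and all EcN arrays, while EcN overlapped mock. ST was lower than mock by a change of -1.20 ± 0.20 (adjusted p = 0.0331), and EcN by -0.41 ± 0.20 (adjusted p = 0.321). Set directly against EcN at 120 min, ST stood at -0.79 ± 0.20, which did not pass (adjusted p = 0.204).

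MIR3132 lies inside OBSL1, which encodes a cytoskeletal adaptor, on the same strand. OBSL1 itself stood between 6.26 and 6.71 on the arrays of 60 min, with changes of 0.22 ± 0.10 with EcN (adjusted p = 0.207) and 0.11 ± 0.10 with ST (adjusted p = 0.573). At 120 min its change with ST was -0.07 ± 0.10 (adjusted p = 0.770).

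MIR4653 fell with both flagellins at 60 min. It stood at 5.33, 5.95 and 5.65 in mock, at 3.77, 4.15 and 4.20 with EcN, and at 4.38, 4.37 and 2.63 with ST. All 3 mock arrays were above all 6 flagellin arrays, and ST 60 min C was the lowest array of all. The change was -1.60 ± 0.42 with EcN (adjusted p = 0.0365, limma) and -1.85 ± 0.42 with ST (adjusted p = 0.0238). At 120 min the mock arrays read 5.33, 4.14 and 3.98, the EcN arrays 4.93, 4.38 and 3.76, and the ST arrays 3.97, 4.35 and 4.39. The groups of 120 min overlapped, and mock at 120 min was lower than mock at 60 min by an estimate of -1.16 ± 0.42 that did not pass (adjusted p = 0.318). The change of the effect from 60 to 120 min was 1.48 ± 0.60 for EcN (adjusted p = 0.352) and 1.61 ± 0.60 for ST (adjusted p = 0.411), so a difference between the times was not established.

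AP1S1, the host gene of MIR4653 and a subunit of the clathrin adaptor complex AP-1, had estimates above 0. It read 6.92, 7.03 and 7.28 in mock at 60 min, 7.29, 7.49 and 7.59 with EcN, and 7.41, 7.60 and 7.55 with ST. Every flagellin array was above the highest mock array, yet the changes of 0.38 ± 0.14 (adjusted p = 0.119) and 0.44 ± 0.14 (adjusted p = 0.0815) did not pass. Host and precursor thus had estimates of opposite sign on the same arrays.

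MIR4677 moved on nearly the same arrays. It read 5.24, 5.55 and 5.42 in mock at 60 min, 3.85, 4.96 and 4.33 with EcN, and 4.42, 4.39 and 3.84 with ST, with no overlap of mock and flagellin. It fell by 1.02 ± 0.28 on the log2 scale with EcN (adjusted p = 0.0425, limma) and by 1.19 ± 0.28 with ST (adjusted p = 0.0262). At 120 min mock read 5.03, 3.96 and 4.29, EcN 3.71, 4.52 and 4.01, and ST 4.61, 4.74 and 4.63. EcN and ST both overlapped mock there, and the ST arrays lay above the EcN arrays by an estimate of 0.57 ± 0.28 (adjusted p = 0.437). Mock at 120 min was lower than mock at 60 min by an estimate of -0.98 ± 0.28 (adjusted p = 0.230). As with MIR4653, the high mock array at 120 min was A, one of the 5 arrays with high NFKBIA. Without it, the fall in mock from 60 to 120 min passed, at -1.28 ± 0.28 (adjusted p = 0.0170, limma). The change of the ST effect between the times passed too, at 1.72 ± 0.37 (adjusted p = 0.0270), against 1.42 ± 0.40 (0.342) with all arrays. Leaving this array out also raised the calls over all genes in every comparison with mock, with ST at 120 min from 0.559% to 5.62%. No share of all genes was set beside the calls of MIR4677, so they are not read as particular to it. The host gene SDCCAG8, which encodes a centrosomal protein, had estimates of 0.48 ± 0.14 with EcN (adjusted p = 0.0512) and 0.26 ± 0.14 with ST (adjusted p = 0.301).

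Of the precursors called with EcN at 60 min and not with ST, MIR647 showed the largest change. It read 4.69, 6.04 and 5.12 in mock and 3.87, 3.77 and 3.94 with EcN, with the EcN arrays close together and all below mock. The change was -1.42 ± 0.35 (adjusted p = 0.0296, limma). With ST it read 4.79, 4.66 and 4.27, overlapping mock, and its change was -0.71 ± 0.35 (adjusted p = 0.243). The flagellins set against each other differed by 0.72 ± 0.35, which did not pass (adjusted p = 0.550). Its host gene UCKL1, a uridine-cytidine kinase-like enzyme, was the only host of a precursor called with EcN whose estimate was below 0 as well, at -0.31 ± 0.12 (adjusted p = 0.122).

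MIR593 had a narrow spread. It read 4.79, 4.76 and 4.66 in mock and 4.40, 4.0 and 4.05 with EcN at 60 min, while the ST arrays, at 4.62, 4.54 and 4.72, overlapped mock. EcN changed it by -0.59 ± 0.14 (adjusted p = 0.0294, limma) and ST by -0.11 ± 0.14 (adjusted p = 0.698). ST against EcN stood at 0.47 ± 0.14, which did not pass over all genes (adjusted p = 0.368). It lies in SND1, which encodes a nuclease reported in the RNA-induced silencing complex and which stood at 0.25 ± 0.12 with EcN (adjusted p = 0.194).

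MIR4442 and MIR4732 were among the rows with the strongest signal. MIR4442, inside the topoisomerase gene TOP2B, read 6.74, 6.83 and 7.02 in mock at 60 min, 6.01, 6.37 and 6.34 with EcN, and 6.56, 6.28 and 6.08 with ST. Both flagellin groups lay below mock without overlap; the change was -0.62 ± 0.16 with EcN (adjusted p = 0.0347, limma) and -0.56 ± 0.16 with ST (adjusted p = 0.0536). TOP2B stood at 0.12 ± 0.12 with EcN (adjusted p = 0.590). MIR4732, from the erythroid cluster that holds MIR144 and MIR451A, read 7.25, 7.17 and 7.12 in mock, 6.85, 6.09 and 6.63 with EcN, and 6.82, 6.75 and 6.74 with ST. Here too both flagellin groups lay below mock, with a change of -0.66 ± 0.18 with EcN (adjusted p = 0.0418) and -0.41 ± 0.18 with ST (adjusted p = 0.184).

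MIR378I gave the largest fall of any gene tested with ST at 60 min. Its mature strand carries the seed of the miR-378 family. It read 4.90, 5.59 and 5.22 in mock, 5.50, 5.41 and 4.96 with EcN, and 2.19, 4.29 and 3.46 with ST. The ST arrays lay below all others at 60 min and were far apart from each other, while EcN overlapped mock. The change was -1.93 ± 0.44 with ST (adjusted p = 0.0238, limma) and 0.05 ± 0.44 with EcN (adjusted p = 0.961). Set directly against EcN, ST stood at -1.98 ± 0.44, the lowest estimate of all 16111 genes in that comparison, but no gene passed there (adjusted p = 0.246). At 120 min mock read 4.73, 6.18 and 5.52, EcN 4.97, 4.67 and 3.91, and ST 3.91, 4.40 and 4.61; the change with ST was -1.17 ± 0.44 (adjusted p = 0.184). RefSeq places it over TNFRSF13C, the receptor gene for the B-cell factor BAFF, whose estimate was -0.26 ± 0.24 with ST at 60 min (adjusted p = 0.577).

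MIR760 and MIR3939 were called with ST at 60 min and in no other comparison. MIR760 read 4.91, 5.08 and 5.51 in mock, 3.94, 4.60 and 4.12 with ST, and 4.57, 4.57 and 4.31 with EcN. Both flagellin groups lay below mock, with changes of -0.95 ± 0.24 with ST (adjusted p = 0.0346, limma) and -0.68 ± 0.24 with EcN (adjusted p = 0.0944). MIR3939, which overlaps no other gene in RefSeq, was the precursor that rose: it read 5.86, 6.16 and 5.91 in mock and 6.55, 6.50 and 6.43 with ST. The ST arrays lay above mock and close together, with a change of 0.52 ± 0.13 (adjusted p = 0.0304). With EcN it read 5.82, 6.23 and 6.44, overlapping mock, with a change of 0.19 ± 0.13 (adjusted p = 0.379). ST against EcN stood at -0.26 ± 0.24 for MIR760 and 0.33 ± 0.13 for MIR3939 (adjusted p = 0.767 and 0.451).

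**Figure D3:**
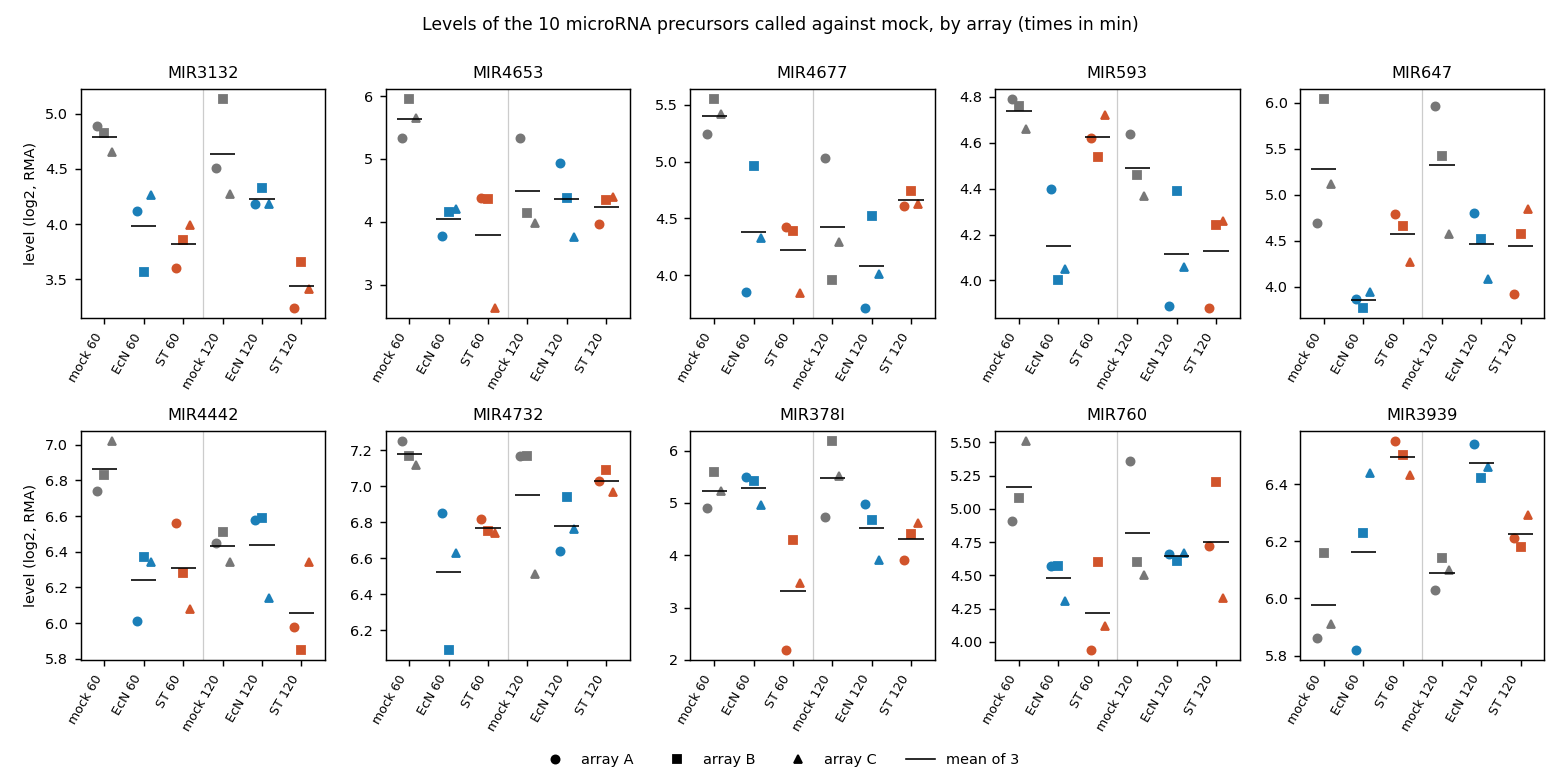
Log2 level (RMA, vertical axis) of the 10 precursors called in any comparison with mock, in 6 groups (horizontal axis; grey mock, blue EcN, orange ST; left of the line 60 min, right of it 120 min). Symbols mark the arrays A, B and C, and bars are means of 3. At 60 min, 9 of the 10 lie lower than mock with at least 1 flagellin and MIR3939 lies higher with ST, and at 120 min the ST arrays of MIR3132 lie below mock.

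Leaving out 1 array changed these counts, and those over all genes with them. Without mock 60 min B, 0 precursors passed in either comparison at 60 min, and 0.0434% of all genes passed with EcN and 0.782% with ST. Without mock 60 min C it was again 0 in both, beside 0.0186% and 0.49% of all genes. For EcN the count was also 0 without EcN 60 min B, where 0% of all genes passed, and without EcN 60 min C, where 0.503% did. It was 3 without EcN 60 min A (1.5% of all genes) or mock 60 min A (4.16%). For ST at 60 min it was 1 without ST 60 min A (0.937% of all genes) or ST 60 min C (0.826%), and 10 without mock 120 min C (8.45%), which enters only the shared spread. MIR3132 with ST at 60 min was kept in 15 of 18 such fits, with adjusted p up to 0.0690, and was lost without mock 60 min B, mock 60 min C or ST 60 min A. MIR3132 with ST at 120 min was kept in 13 of 18 and lost without mock 120 min B, EcN 120 min B or any of the 3 ST arrays. MIR4653 and MIR3132 with EcN and MIR3939 with ST were lost without any 1 of the 6 arrays compared. MIR647 and MIR4442 with EcN were lost without mock 60 min B or C or any EcN 60 min array, and MIR593 without any mock 60 min array or EcN 60 min B or C. MIR378I and MIR760 with ST were lost without mock 60 min B or C or ST 60 min A or C, MIR4653 without mock 60 min B or C or ST 60 min C, and MIR4677 without mock 60 min B or C or any ST 60 min array. MIR4677 and MIR4732 with EcN were kept least, in 7 of 18 fits each. MIR4677 was lost without any of the 6 arrays compared, EcN 120 min C, ST 60 min B or any ST 120 min array. MIR4732 was lost without any mock 60 min array, EcN 60 min B or C, EcN 120 min C, any ST 60 min array, or ST 120 min A or B.

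The 5 arrays with high NFKBIA were left out in a fit chosen after seeing the data. With EcN at 60 min, 6 precursors then passed, beside 6.16% of all genes: MIR4653 at -1.68 ± 0.21 (adjusted p = 0.00516, limma), MIR647 at -1.47 ± 0.35 (0.0361), MIR3132 at -0.94 ± 0.24 (0.0447), MIR4442 at -0.67 ± 0.14 (0.0253), and MIR3944 and MIR449B. MIR4677 at -0.997 ± 0.29 (adjusted p = 0.0660), MIR4732 at -0.71 ± 0.22 (0.0835) and MIR593 at -0.54 ± 0.17 (0.0855) did not. With ST at 60 min, 3 passed, beside 2.08% of all genes: MIR4653 at -1.27 ± 0.21 (adjusted p = 0.0280), MIR3132 at -1.055 ± 0.24 (0.0490) and MIR4673. MIR378I at -2.0 ± 0.465 (adjusted p = 0.0526), MIR760 at -0.90 ± 0.22 (0.0592), MIR3939 at 0.55 ± 0.14 (0.0623) and MIR4677 at -1.003 ± 0.29 (0.0856) did not. MIR3132 with ST at 120 min stood at -1.25 ± 0.26 (adjusted p = 0.0548), so that 0 precursors passed there, beside 0.788% of all genes. Without the same 5 arrays, MIR4653, MIR4673 and MIR4677 passed for mock at 120 over 60 min and MIR4653 for the change of the EcN effect between the times. The share of all genes was not set beside these calls, so they are not read as particular to the precursors.

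A fit without the 6 arrays lettered C leaves out both C arrays of mock, where NFKBIA was low, and keeps mock 120 min A, where it was high. With 2 arrays a group, the changes with EcN at 60 min were -1.68 for MIR4653, -1.55 for MIR647, -1.01 for MIR3132, -0.99 for MIR4677, -0.74 for MIR4732, -0.59 for MIR4442 and -0.57 for MIR593, and 0 precursors passed. With ST they were -2.01 for MIR378I, -1.27 for MIR4653, -1.12 for MIR3132, -0.99 for MIR4677, -0.72 for MIR760 and 0.52 for MIR3939, and the only precursor that passed was another one, MIR4673. In this fit 0.0869% of all genes passed with EcN at 60 min and 0.199% with ST. Leaving out mock 120 min A as well left 1 array in mock at 120 min, so only a size is given. The change of MIR3132 with ST at 120 min was then -1.68, against -1.37 with that array kept.

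A second kind of difference ran across the groups. On the 5 arrays with high NFKBIA, a few precursors were also high. Requiring that C be the highest of the 3 arrays in all 4 flagellin groups and A the highest in mock at 120 min gave 1.45% of all genes tested, and 3 of the 68 precursors (4.41%): MIR221, MIR25 and MIR4635. Among the 258 microRNA genes with a lower mean it gave 4 (1.55%), MIR222, MIR503, MIR3671 and MIR4288. These arrays were singled out by measured values, so what follows is a description with no test.

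MIR221, known together with MIR222 for restraining the cell cycle inhibitor CDKN1B and the receptor KIT, showed this most widely. With EcN it read 4.77, 4.73 and 6.12 at 60 min and 4.33, 3.91 and 5.44 at 120 min. With ST it read 5.80, 5.71 and 7.24, then 5.32, 5.22 and 7.35. In each of these groups A and B lay close together and C stood above both. In mock at 120 min A was the high array, at 7.29 against 5.86 and 4.71, and mock at 60 min read 5.02, 6.38 and 5.76. The labelled comparisons therefore gave wide errors: -0.51 ± 0.68 and 0.53 ± 0.68 with EcN and ST at 60 min, -1.40 ± 0.68 and 0.01 ± 0.68 at 120 min, with adjusted p from 0.317 to 0.998 (limma).

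MIR222 lies beside MIR221 in the same host gene and had a mean of 3.52. It read 4.57 on mock 120 min A, and array C of the ST groups read 4.52 at 60 min and 4.40 at 120 min, whereas it lay between 3.03 and 3.76 on the other 15 arrays. The EcN arrays C, at 3.39 and 3.36, were the highest of their groups by small margins and lay inside the range of mock at 60 min, which read 3.44, 3.34 and 3.42. MIR222 and MIR221 were thus each the highest of their group on all 5 arrays, and each stood clear of the rest on the same 3. The EcN arrays C of MIR221, at 6.12 and 5.44, lay below mock 60 min B at 6.38. Their margin within their own groups was wider than that of MIR222.

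MIR25 and MIR4635 followed the order of the arrays less closely. MIR25, the third member of the miR-106b-25 cluster inside MCM7, read 5.45, 5.99 and 6.53 with EcN at 60 min, 6.38, 5.51 and 6.45 with EcN at 120 min, 6.55, 5.87 and 7.07 with ST at 60 min and 5.94, 5.61 and 6.54 with ST at 120 min. In mock it read 6.29, 6.70 and 6.16 at 60 min and 7.10, 6.48 and 5.84 at 120 min. C was the highest flagellin array each time, but its margin over A with EcN at 120 min was small, and mock 60 min B lay above 3 of the 4 C arrays. MCM7, a subunit of the replicative helicase, read between 10.13 and 10.65 over all 18 arrays, and its cluster neighbours MIR106B and MIR93 did not have this order of arrays. MIR4635, inside the potassium-chloride transporter gene SLC12A7, read 3.73, 3.91 and 4.05, then 3.74, 3.69 and 4.72 with EcN, and 4.70, 3.95 and 5.14, then 4.06, 4.18 and 5.88 with ST. In mock it read 3.52, 4.27 and 3.02 at 60 min and 4.84, 2.82 and 4.12 at 120 min, so that mock alone spanned 2.82 to 4.84, against 3.69 to 5.88 over the flagellin arrays.

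**Figure D4:**
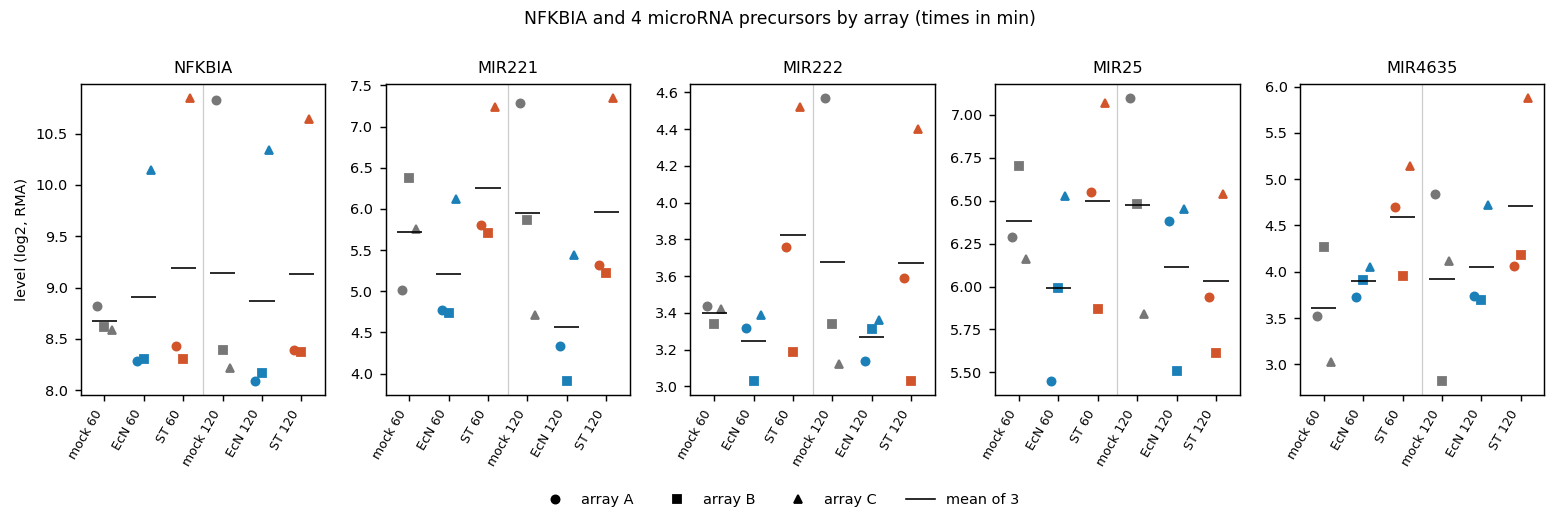
Log2 level (RMA, vertical axis) of NFKBIA and of the precursors MIR221, MIR222, MIR25 and MIR4635 in 6 groups (horizontal axis; grey mock, blue EcN, orange ST; left of the line 60 min, right of it 120 min), with symbols for the arrays A, B and C and bars for means of 3. NFKBIA lies between 10.15 and 10.85 on C of every flagellin group and A of mock 120 min. MIR221 and MIR222 are each the highest of their group on the same 5 arrays, MIR222 by small margins with EcN.

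Most precursors lay in another gene. By RefSeq, 44 of the 68 overlapped a gene on the same strand, 5 a gene on the opposite strand only, 11 a gene whose strand the table did not give, and 8 none; 0 overlapped a small nucleolar RNA gene. For 33 of the 44 the host gene was itself tested. With EcN at 60 min, 14 of these 33 pairs had a precursor below and a host above mock, 8 had both below, 6 both above and 5 the precursor above and the host below. With ST the counts were 13, 11, 7 and 2. Precursors were called in 6 of the 33 pairs with EcN and 3 with ST, and hosts in 1 and 2, where 6.45% and 5.26% of all genes were called. The median over the 33 was -0.28 for precursors and 0.08 for hosts with EcN, and -0.33 and 0.10 with ST.

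**Figure D5:**
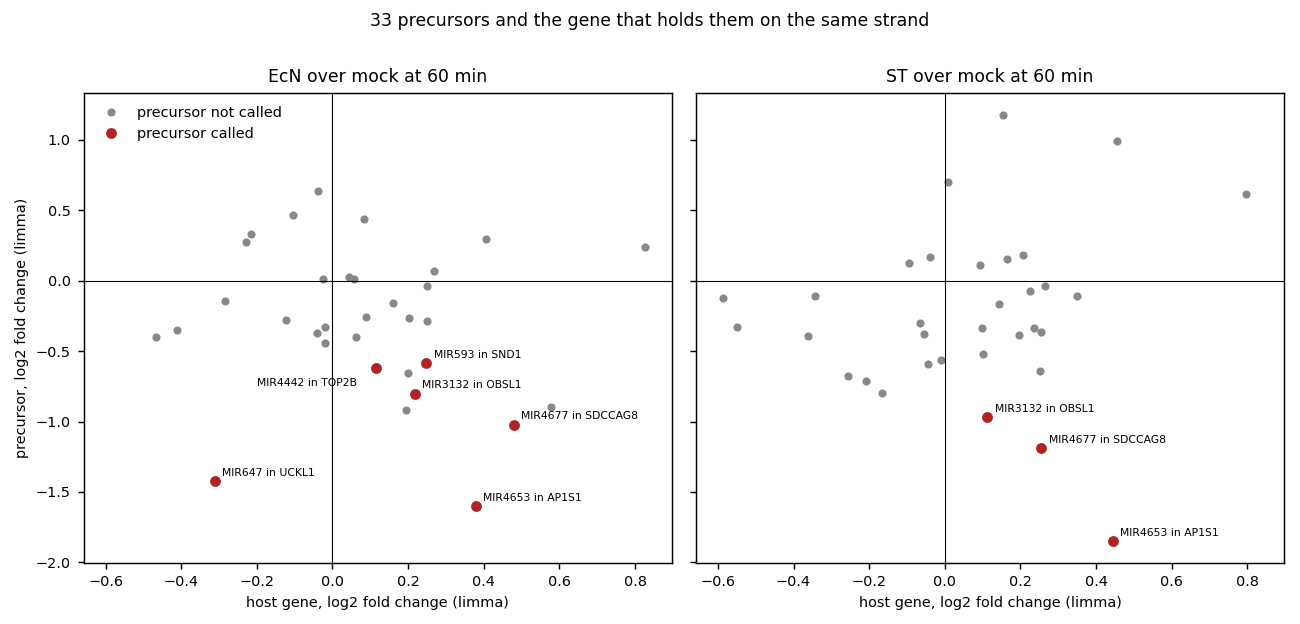
Log2 fold change (limma) at 60 min of 33 precursors (vertical axis) against that of the gene that holds them on the same strand (horizontal axis), for EcN (left) and ST (right); red points are called precursors with the names of both genes. All red points lie below 0 on the vertical axis, and all but MIR647 in UCKL1 lie to the right of 0 on the horizontal one.

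Called host genes are given with their precursors. Every call with EcN at 60 min, of any gene, was lost without EcN 60 min B, where 0% of all genes passed. The same held for ST at 120 min without mock 120 min B. PLEKHJ1, which holds the mirtron MIR1227, rose by 0.83 ± 0.18 with EcN (adjusted p = 0.0241, limma) and 0.80 ± 0.18 with ST (adjusted p = 0.0249) at 60 min. MIR1227 stood at 0.24 ± 0.31 and 0.61 ± 0.31 in the same comparisons (adjusted p = 0.672 and 0.250). MIR181A1HG, the long noncoding host of MIR181B1, fell by 0.59 ± 0.14 on the log2 scale with ST at 60 min (adjusted p = 0.0260), while MIR181B1 stood at -0.12 ± 0.28 (adjusted p = 0.836). ATG4D, an autophagy protease gene that overlaps MIR1238, rose by 0.37 ± 0.11 with EcN at 60 min (adjusted p = 0.0487), by 0.67 ± 0.11 with ST at 60 min (adjusted p = 0.00699) and by 0.59 ± 0.11 with ST at 120 min (adjusted p = 0.0331). MIR1238 had estimates of the other sign, -0.18 ± 0.29, -0.86 ± 0.29 and -0.76 ± 0.29, which did not pass (adjusted p = 0.754, 0.0926 and 0.195).

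Directly between the flagellins, and between the times, 0% of all genes tested and 0 precursors passed in limma. ST against EcN at 60 min had 3 precursors above 0 and 5 below at an unadjusted p under 0.05, with MIR378I, then MIR4525 at -1.02 ± 0.23 (adjusted p = 0.246) and MIR548AL at -0.74 ± 0.22 (adjusted p = 0.368) the smallest p-values. MIR4525, in the gene RAB40B, read 3.21, 3.43 and 3.75 with ST and 4.60, 4.43 and 4.44 with EcN at 60 min, and the groups did not overlap. At 120 min the unadjusted counts were 1 higher and 4 lower, led by MIR3132, MIR4737 at 0.33 ± 0.10 (adjusted p = 0.260) and MIR4324 at -0.69 ± 0.22 (adjusted p = 0.270). MIR4737 read 11.91, 12.06 and 11.94 with ST and 11.72, 11.61 and 11.60 with EcN at 120 min, a small difference on the steadiest row.

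From 60 to 120 min, the unadjusted counts were 1 higher and 6 lower in mock, 1 and 1 with EcN, and 5 and 2 with ST. In mock the smallest p-values were those of MIR4677, MIR449B at -0.44 ± 0.15 (adjusted p = 0.285) and MIR151B at -0.54 ± 0.20 (adjusted p = 0.314). With EcN they were those of MIR3939 at 0.31 ± 0.13, MIR500B at -0.52 ± 0.24 and MIR3661 at 0.47 ± 0.25 (adjusted p = 0.569, 0.627 and 0.683). With ST they were those of MIR4525 at 1.09 ± 0.23, MIR593 at -0.50 ± 0.14 and MIR941-1, one of several tandem copies in DNAJC5, at 0.52 ± 0.15 (adjusted p = 0.638, 0.884 and 0.884). The change of a flagellin's effect between the times was also called for 0 precursors and 0% of all genes, and an unadjusted p under 0.05 was reached by 4 above 0 and 1 below for EcN and by 7 above and 2 below for ST. For EcN the smallest p-values were those of MIR449B at 0.69 ± 0.21, MIR4442 at 0.62 ± 0.23 and MIR545 at -1.21 ± 0.48 (adjusted p = 0.252, 0.312 and 0.346).

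The microRNAs known for a part in NF-kB and Toll-like receptor signalling were mostly below the level rule. Of 12 such genes, 9 had a row with 1 symbol, 5 were tested and 1, MIR221, was among the 68. MIR146A, a feedback inhibitor of Toll-like receptor signalling, had a mean of 1.53, MIR146B 1.46, MIR132 1.50 and MIR9-3 1.40, and none of these was tested. MIR212 at 3.59 and MIR9-1 at 2.75 were tested and not called against mock, and MIR155, MIR9-2 and MIR147B have no row of their own symbol alone. MIR21, with a mean of 2.34, was the 1 of the 5 tested that rose, with ST at 60 min, where 5.26% of all genes passed. It read 1.93, 2.07 and 1.49 in mock at 60 min, 3.36, 2.57 and 3.11 with ST and 2.72, 2.32 and 2.80 with EcN. All 3 mock values lay below the lowest array median of 2.27. Its call was not followed through the fits without single arrays. All 6 flagellin arrays lay above mock, by 1.19 ± 0.26 with ST (adjusted p = 0.0215, limma) and 0.78 ± 0.26 with EcN (adjusted p = 0.0798).

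The other families gave no call. Of the miR-106b-25 cluster all 3 genes were tested, with MIR106B at a mean of 3.67 and MIR93 at 3.08. MIR106B stood at 0.36 ± 0.24 and 0.51 ± 0.24 with EcN and ST at 60 min and at -0.72 ± 0.24 and -0.45 ± 0.24 at 120 min (adjusted p from 0.151 to 0.381). The miR-106a-363 cluster had 6 rows with means between 1.03 and 1.15, none tested, and the miR-17-92 cluster has no row of 1 symbol. Of the let-7 family, 10 of 12 genes had a row, 6 were tested, the highest mean was 3.71 for MIRLET7G, and 0 were called against mock.

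Genes that make and use microRNAs formed a list of their own. Of these 25 genes, 21 were tested, and 1 (4.76%) was called with EcN at 60 min, where 6.45% of all genes were. With ST at 60 min 0 were called, against 5.26% of all genes, and at 120 min 0 with EcN or ST, against 0.0621% and 0.559%. This was AGO1, an Argonaute protein, which fell by 0.42 ± 0.10 on the log2 scale (adjusted p = 0.0257, limma). It read 9.51, 9.53 and 9.51 in mock, 9.01, 9.14 and 9.14 with EcN, and 9.16, 9.20 and 9.21 with ST, whose change of -0.32 ± 0.10 did not pass (adjusted p = 0.0625). Mock lay above all 6 flagellin arrays. The median change of the 21 genes was -0.12 with EcN and -0.04 with ST at 60 min, and -0.02 and 0.00 at 120 min.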

How the data were processed

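Per the submitters' processing notes, the deposited log2 values come from RMA in oligo 1.30.0; annotation version and build: not given in the sources used here. They were used as deposited. Rows were named through the platform annotation, in which 23871 rows have 1 symbol. Genes above their array's median on at least 3 of 18 arrays were kept, with the row of highest mean for each, leaving 16111.

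Differences were tested with limma 3.58.1 (R 4.3.3; lmFit, eBayes, 6 group means; 12 residual and 4.20 prior degrees of freedom), two-sided, with Benjamini-Hochberg adjustment within each of 11 comparisons. The fit was tested on simulated data. The number of arrays limits the precision. The members and lists were chosen with earlier results of these data known.

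Named precursors were those with the 10 highest means, the 5 largest and 5 smallest SDs, the called ones (or the 3 smallest p-values where none was called), 3 on either side of the threshold, the fixed lists, and host genes. The lists were 3 microRNA clusters, the let-7 family, microRNAs linked to NF-kB, microRNA processing genes, and markers of HEK293, leukocytes, fibroblasts and intestinal epithelium. Sequences and neighbouring genes come from RefSeq (GRCh38.p14), matched by symbol: 66 of 68 precursors were found in its microRNA table. Alternatives were other normalizations, filters, spread estimates, a replicate block, and fits without single arrays, the arrays lettered C, or (chosen after seeing the data) the 5 with high NFKBIA.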

Additional observations from a re-analysis of the deposited data

Results flagged for a closer look

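In 9 cases every array of a flagellin group lay on one side of the mock mean in 1 comparison and every array on the other side in the second, while the direct test of the difference did not pass in limma. Chance gives some such cases over the named precursors searched, and comparisons at one time share their mock arrays. Between the times, MIR151B stood at -0.12 with EcN at 60 min and 0.47 at 120 min (adjusted p of the difference = 0.416), and MIR449B at -0.48 and 0.21 (0.252). With ST, MIR4525 stood at -0.59 at 60 min and 0.40 at 120 min (0.368), MIR4677 at -1.19 and 0.23 (0.342), MIR4732 at -0.41 and 0.08 (0.496), and MIR548AL at -0.48 and 0.33 (0.416). Between the flagellins, MIR4324 stood at 0.34 with EcN and -0.33 with ST at 60 min (0.399), MIR4525 at 0.43 and -0.59 (0.246), and MIR4732 at -0.17 and 0.08 at 120 min (0.613).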

How the results depend on the processing

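No named change turned its direction under any alternative, and of 406 refits of the 14 calls, 270 kept the call; 0 of the 14 were kept in every fit. Centring on array medians and renewed quantile normalization kept all 14 calls. With a mean of at least 4 required of every gene, 10 precursors passed for ST over mock at 60 min. There 1365 genes passed, against 848 in the main fit, and no share of all genes was taken. The count of precursors for ST was 1 without the arrays lettered C, beside 0.199% of all genes, and 1 when every row was tested on its own. For EcN over mock at 60 min both of the last settings gave 0, beside 0.0869% of all genes without the arrays lettered C. EcN over mock at 120 min had 1 without the arrays lettered C, beside 0.77% of all genes. Without the 5 arrays with high NFKBIA, chosen after seeing the data, ST over mock had 3 at 60 min and 0 at 120 min. Beside these stood 2.08% and 0.788% of all genes. Mock over time then had 3 and the change of the EcN effect 1, and the share of all genes was not set beside these counts. ST over mock at 120 min had 0 without the arrays lettered C, beside 0% of all genes. It had 0 when only the compared groups were fitted, beside 0.0186%, and 0 with every row. No share is given for the fits of every row. Leaving out 1 array gave 0 to 9 for EcN and 0 to 10 for ST at 60 min, 0 to 1 and 0 to 3 at 120 min, 0 to 2 for mock over time, 0 to 1 for the change of the ST effect and 0 to 0 for the 5 others. A threshold of 5 left 19 precursors and one of 3.5 gave 95. With the replicate block, MIR4677 (adjusted p = 0.0527, limma), MIR4732 (0.0523) and MIR4442 (0.0534) lost their call with EcN at 60 min. MIR3944 gained one there, and the count was 5, beside 4.72% of all genes. Deviations of same-lettered arrays correlated over 0.1 in 10 of 45 pairs (-0.237 to 0.273), among them 5 of the 6 pairs of flagellin arrays C, and not in every pair, so the letters were not taken to pair arrays. Causes were not tested.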
